A study of Rattus norvegicus with 6 samples.

Results

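The genes described here are Fkbp5 and 9 other genes of glucocorticoid signalling: the glucocorticoid-induced genes Tsc22d3, Sgk1, Klf9, Zbtb16, Dusp1, Errfi1 and Pdk4, and the corticosteroid receptors Nr3c1 and Nr3c2. They were picked by gene symbol from a table of 32883 genes, in which 9 of the 10 had a row; Nr3c1, the glucocorticoid receptor itself, was not analysed here. Fkbp5 was chosen on its rise between the same 2 groups compared here and on its spread between animals, so its values are given as a description, with no test and no call.

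The tissue was the vestibular sensory epithelium of 6 Long-Evans rats, and its RNA was sequenced. The 3 STREP animals received streptomycin, an aminoglycoside antibiotic that is toxic to the hair cells of the inner ear, by subcutaneous injection at 500 mg/kg once a day for 6 weeks from postnatal day 21, and were thus at postnatal day 63 when dosing ended; the 3 Control animals received the vehicle, PBS. Both groups held 2 males (numbered 1 and 2) and 1 female (numbered 3), and no animal carried a transgene or a mutation. For each animal, the 2 utricles and 6 cristae were pooled into a single bulk library primed on poly(A) tails, so that hair cells, supporting cells and every other cell of the dissected tissue were measured together. STREP 1 and STREP 2, both males, share a number in their titles; they were taken as separate animals because the study's methods give 3 treated animals with the tissue of each pooled, and if they were not, the STREP group would hold fewer independent animals than n states.

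Glucocorticoids, of which corticosterone is the main one in the rat, cross the cell membrane and bind the glucocorticoid receptor, which is held in a complex with heat shock proteins and immunophilins until hormone arrives. The loaded receptor enters the nucleus, binds short palindromic DNA elements and raises or lowers the transcription of its targets. FKBP5, an immunophilin, lowers the affinity of the receptor complex for hormone, and its gene is induced by the receptor, which closes a short negative feedback loop. The mineralocorticoid receptor, encoded by Nr3c2, binds the same hormone and shares many targets, among them Sgk1 and the epithelial sodium channel. In the inner ear, steroid signalling is known for its part in ion transport and for the use of glucocorticoids in treating hearing and balance disorders.

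The level of a gene is given as its normalised count, the deposited count divided by a size factor for the library. A gene was called when its DESeq2 adjusted p-value, taken over all genes tested, was under 0.05 and its fold change exceeded 1.5 in either direction; log2 fold changes are STREP against Control with their standard errors. Levels can be compared between animals for a gene, not between genes, since they are not scaled by transcript length. The DESeq2 p-values set the difference between the groups against the spread between animals within groups of 3. For each gene, that spread is drawn towards the trend over all genes.

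Fkbp5 (ENSRNOG00000022523), the immunophilin of the feedback loop, and Klf9 (ENSRNOG00000014215), a Krüppel-like transcription factor that glucocorticoids induce in many cell types, were the 2 genes of the 9 that were higher in every STREP animal than in every Control animal. Fkbp5 was chosen on its rise, and 9.12% of all genes tested were likewise higher in every STREP animal. The stretch around the transcription starts of Fkbp5 and Klf9 is shown because, of the 9, these are the genes whose levels separated the groups. Each sequence runs from 250 bases before to 50 bases after the start and comes from RefSeq on build GRCr8, a later build than the one the reads were aligned to; that of Fkbp5 is chr20:6543506-6543805 on the minus strand and that of Klf9 is chr1:230126396-230126695 on the plus strand. Capitals mark the GC box GGGCGG and the core of the cAMP response element TGACG, each searched on both strands.
Fkbp5: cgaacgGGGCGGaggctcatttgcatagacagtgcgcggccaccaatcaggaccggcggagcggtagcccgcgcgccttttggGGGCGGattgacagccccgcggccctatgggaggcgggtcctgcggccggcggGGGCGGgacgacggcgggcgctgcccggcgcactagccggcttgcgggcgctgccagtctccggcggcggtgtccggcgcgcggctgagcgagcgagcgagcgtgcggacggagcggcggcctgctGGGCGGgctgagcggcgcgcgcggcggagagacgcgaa
Klf9: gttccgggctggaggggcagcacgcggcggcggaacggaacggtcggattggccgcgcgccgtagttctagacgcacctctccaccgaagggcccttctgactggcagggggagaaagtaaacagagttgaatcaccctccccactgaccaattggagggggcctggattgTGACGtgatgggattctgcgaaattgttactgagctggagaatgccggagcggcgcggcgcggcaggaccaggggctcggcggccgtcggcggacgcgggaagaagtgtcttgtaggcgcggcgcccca

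The Fkbp5 stretch was 77% G and C and held 4 GC boxes, whereas the Klf9 stretch was 65.3% G and C and held 1 cAMP response element core and no GC box. Among all 33469 rat promoters of the same 300 bases, 33.1% held the GC box and 21.2% the cAMP response element core. The table held 11 promoters for 7 of the 9 genes: 3 each for Tsc22d3 and Sgk1, and 1 each for Fkbp5, Klf9, Dusp1, Errfi1 and Pdk4; Zbtb16 and Nr3c2 had none. The glucocorticoid half-site AGAACA was in 0 of the 11 on either strand, against 20.7% of all promoters, and the palindrome of 2 half-sites spaced by 3 bases was in 0 of the 11, against 0.0149% of all promoters. The search covered these 300 bases and these letters alone.

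The mean level of Fkbp5 was 89.4 ± 76.2 normalised counts in Control and 562 ± 179 in STREP (SD, n = 3 each), a ratio of 6.28. It was at 76.7, 20.4 and 171 normalised counts in Control animals 1, 2 and 3, from 125, 24 and 199 deposited counts. It was 762, 510 and 414 normalised counts in STREP animals 1, 2 and 3, from 572, 472 and 277 deposited counts. The lowest STREP animal was thus above the highest Control animal, and both extremes were the females of their groups. The fitted log2 fold change was 2.65 ± 0.81.

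The spread of Fkbp5 was wide, above all among the Control animals. Since Fkbp5 was chosen partly on this spread, its place among other genes is a description and not a test. Its coefficient of variation (the SD as a share of the mean) was 85.2% in Control and 31.9% in STREP. The 5985 genes set beside it had a mean level between 100 and 1000 normalised counts over all 6 animals. Their median coefficient was 17.4% in Control and 18.0% in STREP. Of these genes, 99.5% in Control and 82.4% in STREP varied less than Fkbp5. The Control mean of Fkbp5, 89.4, lay below that range, so the Control share is not matched for level. Between the males, the mean difference of log2(normalised count + 1) was 3.94, and between the females it was 1.27, a ratio of 2.42. Leaving out 1 animal at a time gave log2 fold changes from 2.18, without Control 2, to 3.52, without Control 3. Control 2 was the lowest Control animal for 62.2% of the 304 genes called higher over the whole table, against 33.3% of all genes tested. It was the lowest for 3 of the 9 genes described here.

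**Figure D1:**
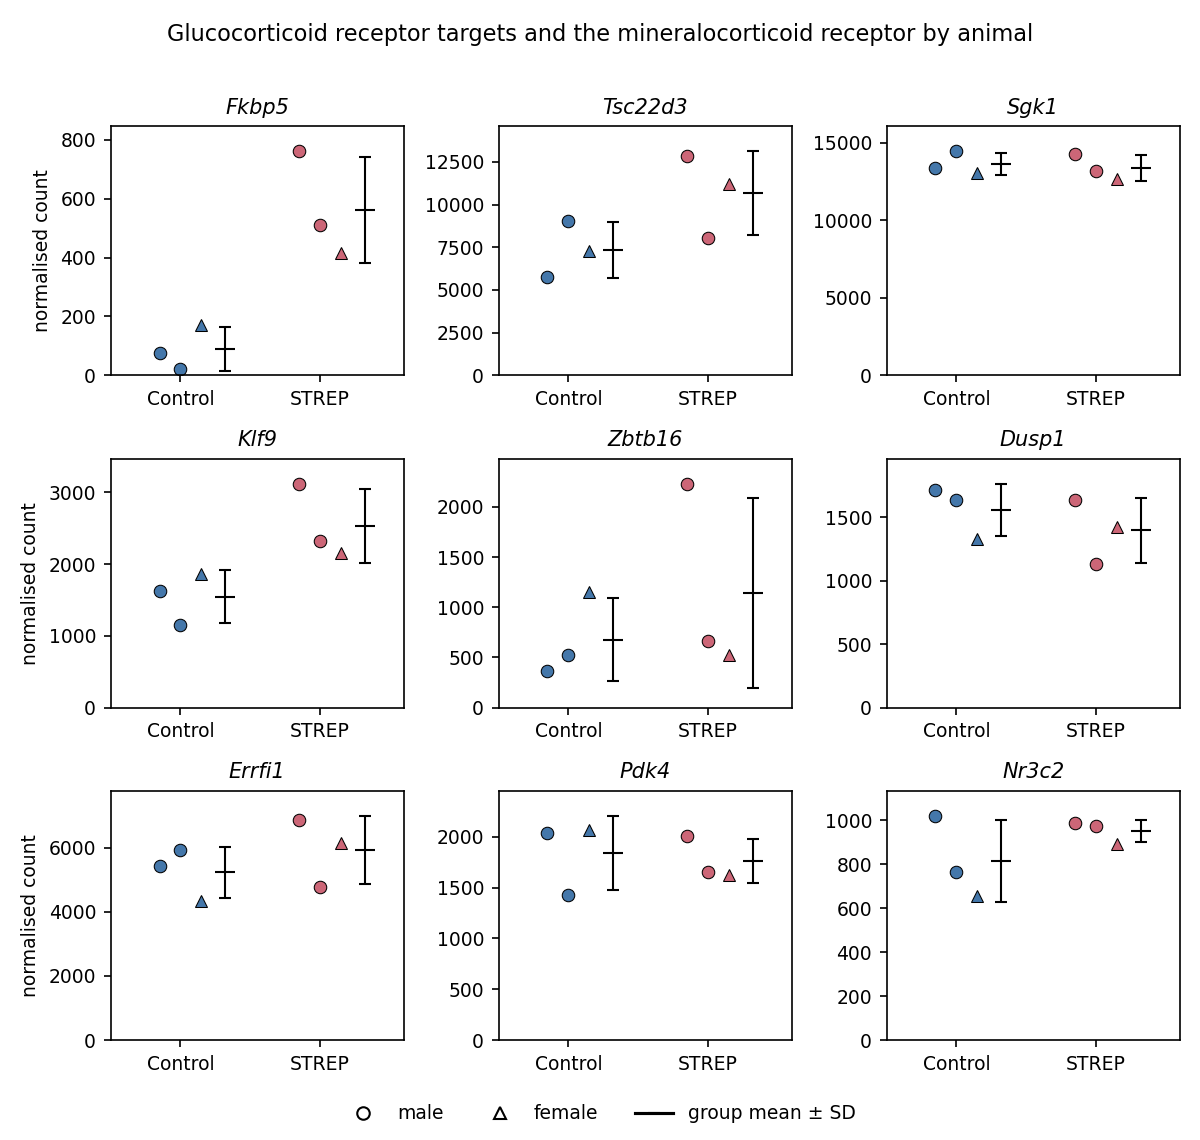
Normalised count of each gene in every animal (circles, males; triangles, females), with the group mean and SD at the right of each group and the vertical axis starting at 0 in each panel. Fkbp5, which was chosen on its rise, and Klf9 are the panels in which no STREP animal overlaps a Control animal. STREP 1, the leftmost STREP point, is the highest STREP animal in all 9 panels.

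Among the other induced genes, Klf9 was the one called in DESeq2. Its level was 1633, 1148 and 1864 normalised counts in Control animals 1 to 3, and 3125, 2328 and 2154 in STREP animals 1 to 3. The groups did not overlap, and the animals stood in the same order within both groups as for Fkbp5, with Control 3 the highest and Control 2 the lowest of the controls and STREP 1 the highest and STREP 3 the lowest of the treated. The mean went from 1548 ± 366 to 2536 ± 518 (SD, n = 3 each), a ratio of 1.64. This is a log2 fold change of 0.71 ± 0.22, with an adjusted p of 0.0330 in DESeq2. The call was lost in edgeR (adjusted p = 0.136), in limma-voom (adjusted p = 0.125) and with library totals as size factors (DESeq2 adjusted p = 0.222), while the fold change stayed at 0.71 to 0.72. It was also lost without Control 1, Control 2, STREP 1 or STREP 2, with DESeq2 adjusted p-values of 0.105, 0.231, 0.302 and 0.0598, and the log2 fold change over the omissions ran from 0.53 to 0.87.

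Of all genes tested over the whole table, 1.87% were called higher in STREP and 1.37% were called lower. Of the 8 genes other than Fkbp5, 1 was called higher, Klf9, and 0 were called lower by DESeq2, and edgeR and limma-voom each called 0. An unadjusted DESeq2 p under 0.05 was found for 2 of the 8, Klf9 and Tsc22d3, and for 12.2% of all genes tested. Values of every STREP animal lay above those of every Control animal for 9.12% of the genes tested and below them for 8.63%; for the 8 genes other than Fkbp5 the counts were 1 and 0. The median log2 fold change of the 8 genes was 0.20, against 0.01 over all genes tested, with 5 of the 8 above 0 and 3 below; 51% of all genes tested were above 0. The order of animals within both groups that Fkbp5 had was shared by Klf9 and Pdk4 among the 8 others and by 2.34% of all other genes tested. For Pdk4 this order rested on near ties, with Control 1 close to Control 3 and STREP 2 close to STREP 3.

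**Figure D2:**
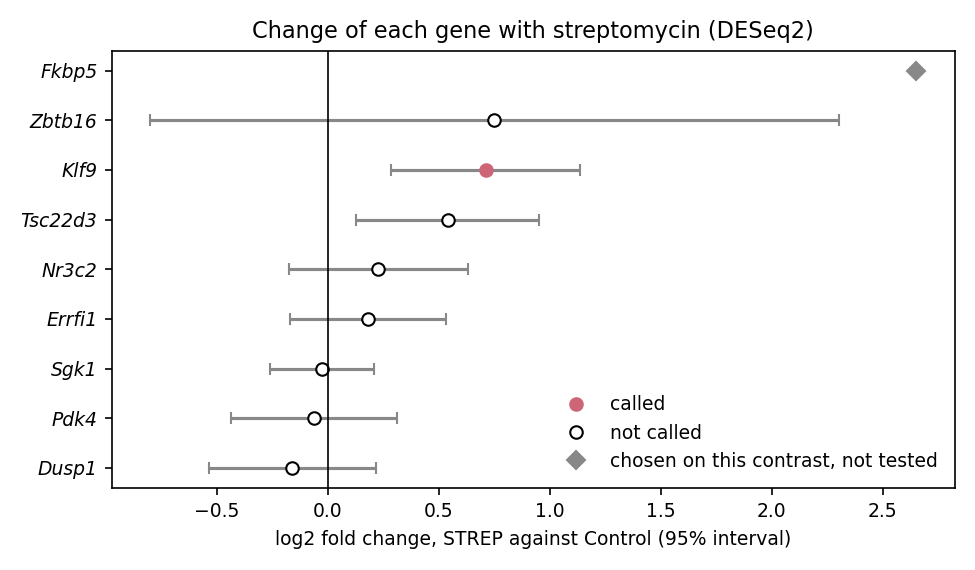
Log2 fold change of STREP against Control for each of the 9 genes (horizontal axis), with its 95% interval from DESeq2; the filled red point was called, open points were not, and the grey diamond is Fkbp5, which was not tested and is drawn without an interval. The intervals of Klf9 and Tsc22d3 lie above 0, and those of the other 6 genes tested include 0.

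Tsc22d3 (ENSRNOG00000056135), also known as glucocorticoid-induced leucine zipper, encodes a protein that binds and restrains inflammatory transcription factors. Its level was 5739, 9037 and 7289 normalised counts in the Control animals and 12845, 8031 and 11177 in the STREP animals. STREP 1 and STREP 3 were above all the controls, while STREP 2 was below Control 2. The mean was 7355 ± 1650 in Control and 10684 ± 2445 in STREP (SD, n = 3 each), with a log2 fold change of 0.54 ± 0.21, an interval of 0.13 to 0.95 and a DESeq2 adjusted p of 0.165, so that it was not called. Without STREP 2 the log2 fold change was 0.71 and the gene was called, with a DESeq2 adjusted p of 0.0221. Without each of the other animals in turn it was not called. The DESeq2 adjusted p then ran from 0.0568, without Control 2, to 0.609, without STREP 1. Nor was it called in edgeR (adjusted p = 0.326) or in limma-voom (adjusted p = 0.304).

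Zbtb16 (ENSRNOG00000029980) encodes a zinc finger transcription factor whose gene is strongly induced by glucocorticoids in several tissues. Its level was 362, 524 and 1149 normalised counts in the Control animals and 2233, 660 and 530 in the STREP animals. The 2 highest values belonged to STREP 1, a male, and Control 3, the control female, and the groups overlapped. Its coefficients of variation were 61.3% in Control and 83.1% in STREP, and its log2 fold change of 0.75 ± 0.79 had an interval from -0.80 to 2.30 and a DESeq2 adjusted p of 0.835. Without STREP 1 the log2 fold change was -0.19. The males differed by 1.48 on the log2 scale and the females by -1.12.

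Sgk1 (ENSRNOG00000011815), a kinase that glucocorticoids and aldosterone induce and that keeps sodium channels at the cell surface, had nearly the same level in all 6 animals. Its level was 13387, 14464 and 13057 normalised counts in the Control animals and 14266, 13184 and 12672 in the STREP animals, and the values were interleaved. The log2 fold change was -0.03 ± 0.12, with an interval of -0.26 to 0.21 and a DESeq2 adjusted p of 0.98. The interval was the narrowest of the 9 genes. A change of more than 1.5-fold, which is how far a gene had to move to be called, lay outside it. This also held for the intervals of Dusp1, Errfi1 and Pdk4, given below.

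Dusp1 (ENSRNOG00000003977) encodes a phosphatase that switches off MAP kinases, and Errfi1 (ENSRNOG00000058186) a feedback inhibitor of the EGF receptor. Dusp1 was at 1719, 1638 and 1329 normalised counts in the Control animals and at 1639, 1130 and 1427 in the STREP animals, with a log2 fold change of -0.16 ± 0.19 and a DESeq2 adjusted p of 0.871. Errfi1 was at 5431, 5917 and 4352 normalised counts in the Control animals and at 6874, 4781 and 6133 in the STREP animals, with a log2 fold change of 0.18 ± 0.18 and a DESeq2 adjusted p of 0.821. The groups overlapped for both genes. The intervals ran from -0.54 to 0.22 for Dusp1 and from -0.17 to 0.53 for Errfi1.

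Pdk4 (ENSRNOG00000009565) encodes a kinase that inhibits pyruvate dehydrogenase and so spares glucose. Its level was 2042, 1424 and 2062 normalised counts in the Control animals and 2010, 1657 and 1622 in the STREP animals. The animals stood in the Fkbp5 order within both groups, though with near ties in each, and the groups overlapped. The log2 fold change was -0.06 ± 0.19, with an interval of -0.44 to 0.31 and a DESeq2 adjusted p of 0.973.

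Nr3c2 (ENSRNOG00000034007), the mineralocorticoid receptor gene, was at 1021, 763 and 657 normalised counts in the Control animals and at 987, 976 and 895 in the STREP animals. Control 1 was above all the STREP animals and the other controls were below them. The coefficient of variation was 23.0% in Control and 5.29% in STREP. The log2 fold change was 0.23 ± 0.21, with an interval of -0.18 to 0.63 and a DESeq2 adjusted p of 0.793.

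STREP 1 held the highest STREP value for all 9 genes, a pattern seen after the values were known. Over all genes tested, STREP 1 was the highest STREP animal for 30.6%, and over the 36 other glucocorticoid-induced genes tested it was the highest for 20. Control 1, 2 and 3 were the highest control for 2, 3 and 4 of the 9 genes. Over the 36 other induced genes they were the highest control for 10, 9 and 17, and Control 3 was so for 33.4% of all genes tested. Without STREP 1, Klf9 was not called, Zbtb16 changed sign, and the log2 fold change of Tsc22d3 was 0.39 and that of Fkbp5 was 2.37.

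**Figure D3:**
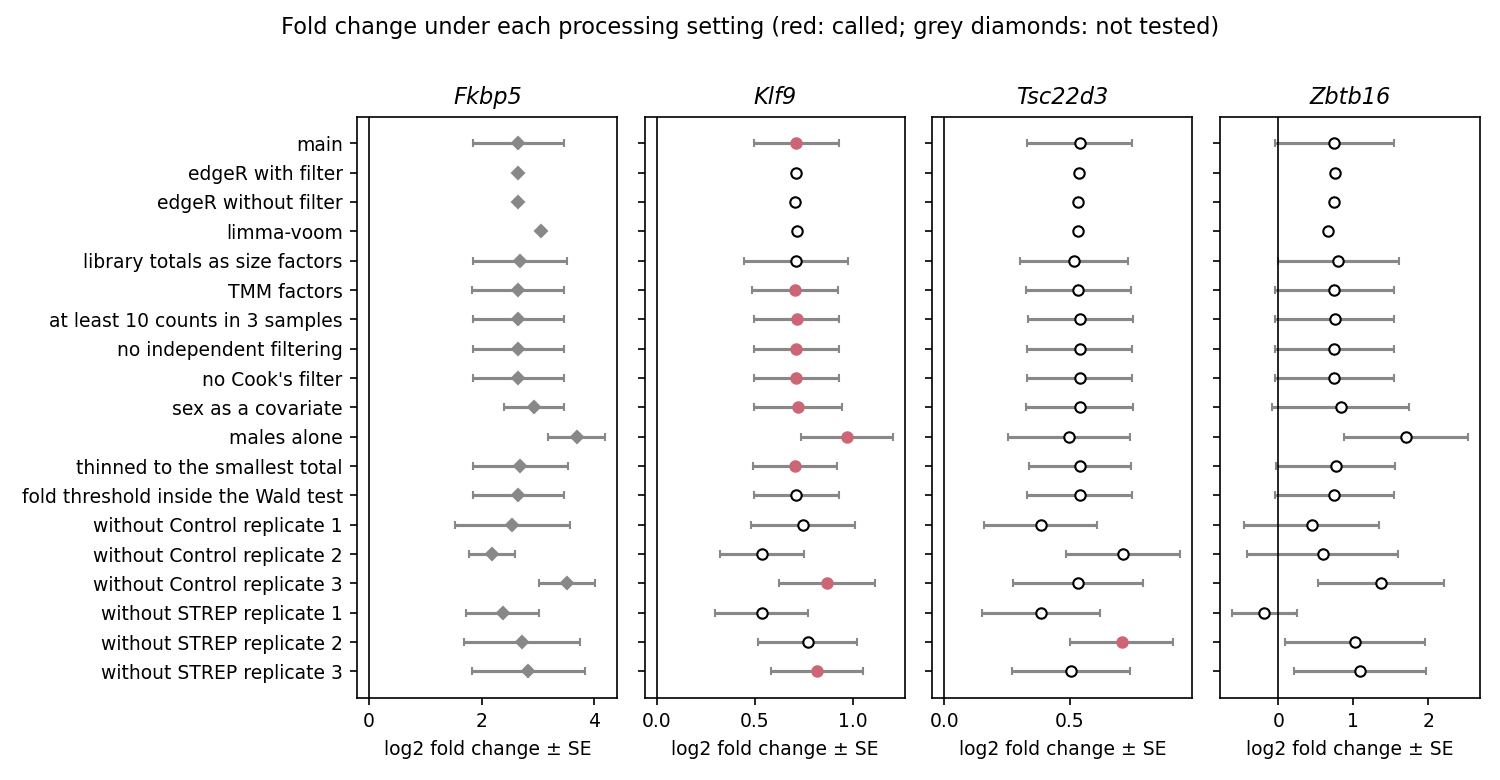
Log2 fold change of Fkbp5, Klf9, Tsc22d3 and Zbtb16 (horizontal axes, each with its own scale) under each processing setting and without each animal; bars are standard errors, which edgeR and limma-voom did not give, red points were called, and grey diamonds are Fkbp5, which was not tested. Fkbp5 stays above 2 in all of them, Klf9 lies between 0.53 and 0.97, and Zbtb16 is below 0 without STREP 1.

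The change in the females was set against the change in the males for the 8 genes other than Fkbp5. The test rested on a single female per group, and its spread came from the males. With a DESeq2 interaction term, 0 of the 8 passed an adjusted p of 0.05, against 0.259% of all genes tested for it, and 1, Zbtb16, had an unadjusted p under 0.05 (unadjusted p = 0.0478, adjusted p = 0.897 with DESeq2). The change in the females minus that in the males was -2.82 ± 1.43 on the log2 scale. For Klf9, the difference between females and males was -0.76 ± 0.41, with a DESeq2 adjusted p of 0.929, and the log2 changes were 0.98 in the males and 0.21 in the females.

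The genes whose levels were most like those of Fkbp5 were named by Pearson's r on log2(normalised count + 1) over the 6 animals, among 13106 genes with a mean of at least 50 normalised counts. These were Inpp5j, an inositol phosphatase (r = 0.998), Sh3glb1, which encodes endophilin B1 (r = 0.994), Ccm2, a scaffold protein of vascular malformations (r = 0.991), Herpud2 (r = 0.991) and Caap1 (r = 0.990). All points shared their libraries, their size factors and the division into 2 groups. Caap1 was the one that stayed among the closest 5 when log2 CPM was used. Klf9 had an r of 0.972 and ranked 34, Zbtb16 had an r of 0.565 and Tsc22d3 of 0.490, and the lowest r of the 8 was that of Dusp1, -0.46.

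Both the first and the last of these genes had smaller fold changes than Fkbp5. Inpp5j was at 1435, 1103 and 1595 normalised counts in the Control animals and at 2072, 1912 and 1853 in the STREP animals, with a log2 fold change of 0.50 ± 0.18. Caap1 was at 146, 97.8 and 196 normalised counts in the Control animals and at 393, 348 and 347 in the STREP animals, with a log2 fold change of 1.31 ± 0.31. In both genes Control 2 was the lowest and STREP 1 the highest of the 6 animals, as for Fkbp5. Both genes were picked for likeness to Fkbp5 over these same animals, so shared extremes follow largely from that choice.

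Other genes that glucocorticoids induce were taken from a list of 39, of which 36 were tested; Pck1 was at 0 in every library. Of the 36, 2 were called higher, 1 was called lower and 33 were not called; 11 had an unadjusted p under 0.05, and edgeR and limma-voom each called 1. Over all genes tested the shares were 1.87% called higher, 1.37% called lower and 12.2% with an unadjusted p under 0.05, and these shares apply to each list that follows. The median log2 fold change was 0.21, with 28 of the 36 above 0, against 51% of all genes tested. Every STREP animal lay above every Control animal for 7 of the 36 and below for 3, against 9.12% and 8.63% of all genes tested. Cdkn1c, an inhibitor of the cell cycle, was at 2883, 1682 and 3038 normalised counts in the Control animals and at 5816, 5406 and 8147 in the STREP animals. Its log2 fold change was 1.35 ± 0.23 with a DESeq2 adjusted p of 1.49e-06, and it was called without each animal in turn.

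Foxo1, a transcription factor of fasting metabolism, was at 469, 165 and 471 normalised counts in the Control animals and at 1024, 1032 and 718 in the STREP animals. As for Fkbp5, Control 2 was the lowest control and the groups did not overlap. The change was 1.33 ± 0.35 on the log2 scale with a DESeq2 adjusted p of 0.00586, and the call was lost without STREP 1 (DESeq2 adjusted p = 0.0898) or STREP 2 (DESeq2 adjusted p = 0.0691). Foxo1 was also not called in edgeR (adjusted p = 0.105) or in limma-voom (adjusted p = 0.0715). Il1r2, a decoy receptor for interleukin-1, fell from 1562, 1512 and 1546 normalised counts in the Control animals to 808, 1144 and 898 in the STREP animals. The change was -0.70 ± 0.18 on the log2 scale with a DESeq2 adjusted p of 0.00461, and the call was lost without STREP 1 (DESeq2 adjusted p = 0.0536). Il1r2 was also not called in edgeR with a filter (adjusted p = 0.0522) or in limma-voom (adjusted p = 0.0547). Nor was it called with library totals as size factors (DESeq2 adjusted p = 0.215) or among the males alone (DESeq2 adjusted p = 0.133).

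The list of inflammatory genes that glucocorticoids repress, which also held subunit genes of NF-κB, gave 10 genes tested of 18 listed. Of the 18, 4 were at 0 in every library: Il6, Cxcl2, Csf2 and Tnf. By DESeq2, edgeR and limma-voom 0 were called, and the median log2 fold change was -0.20. An unadjusted p under 0.05 was found for 1, Cxcl10. Its level was 166, 122 and 94.6 normalised counts in the Control animals and 82.5, 29.2 and 41.9 in the STREP animals, with no overlap. Its log2 fold change was -1.32 ± 0.50, with a DESeq2 adjusted p of 0.143. The log2 fold change was -0.02 ± 0.12 for Rela and -0.21 ± 0.23 for Nfkb1, both subunits of NF-κB, and -0.19 ± 0.17 for Vcam1, an adhesion molecule. Rela was positive without Control 3 or STREP 1, and Nfkb1 was positive without Control 3 and among the males alone.

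The chaperones of the receptor complex were not called either. Of 14 tested, 0 were called by DESeq2, edgeR or limma-voom, 1 had an unadjusted p under 0.05, and the median log2 fold change was -0.01. Hsp90ab1, which encodes a form of HSP90, was at 130399, 115154 and 158041 normalised counts in the Control animals and at 106471, 105151 and 171475 in the STREP animals, so that the female was the highest of both groups. Its log2 fold change was -0.08 ± 0.21, that of the heat shock protein gene Hspa8 was -0.10 ± 0.22, and that of Fkbp4, the immunophilin that competes with FKBP5 for the receptor complex, was 0.00 ± 0.21 with an interval of -0.41 to 0.41.

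Among the other FK506-binding proteins, the family of Fkbp5, 14 were tested and 0 were called by DESeq2, edgeR or limma-voom. Of these, 1 had an unadjusted p under 0.05, and the median log2 fold change was -0.03. Fkbp9, an endoplasmic reticulum member, had a log2 fold change of 0.15 ± 0.15, and Fkbp1a, the classic FK506 target, had one of 0.02 ± 0.16, which was -0.03 with library totals as size factors.

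Coregulators of nuclear receptors gave 13 genes tested, of which 1 was called higher, 0 were called lower and 3 had an unadjusted p under 0.05; the median log2 fold change was 0.06. Hdac2, a histone deacetylase of corepressor complexes, was at 2621, 1932 and 2424 normalised counts in the Control animals and at 4737, 5363 and 4887 in the STREP animals. The groups were far apart relative to their spread, with a log2 fold change of 1.10 ± 0.16 and a DESeq2 adjusted p of 6.32e-10. The call stood in edgeR, in limma-voom and without each animal. Of the others, the log2 fold change was 0.07 ± 0.12 for Smarca4, a chromatin remodelling ATPase, and -0.10 ± 0.15 for Crebbp, a histone acetyltransferase. Ncoa3 had a log2 fold change of 0.57 ± 0.16 and a DESeq2 adjusted p of 0.0170, but it did not pass the fold threshold. Every STREP animal lay above every Control animal for 4 of the 13 and below for 1, against 9.12% and 8.63% of all genes tested.

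Genes of steroid metabolism and transport gave 6 tested of 10 listed, with Serpina6 and Cyp11a1 at 0 in every library. By DESeq2, 1 was called lower and 0 higher, 2 had an unadjusted p under 0.05, and the median log2 fold change was -0.21; edgeR and limma-voom called 0. Hsd11b1, the enzyme that regenerates active corticosterone inside cells, was at 2627, 3288 and 2825 normalised counts in the Control animals and at 2317, 1767 and 1619 in the STREP animals. The groups did not overlap, with a log2 fold change of -0.62 ± 0.18 and a DESeq2 adjusted p of 0.0218. The call was lost without Control 2, Control 3, STREP 2 or STREP 3, with DESeq2 adjusted p-values of 0.214, 0.0974, 0.112 and 0.0972. The drug efflux pump Abcb1b had a log2 fold change of 0.11 ± 0.15 and the mitochondrial translocator Tspo one of 0.07 ± 0.17.

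Ion transport genes that aldosterone regulates gave 10 genes tested, of which 1 was called lower, 0 were called higher and 2 had an unadjusted p under 0.05; the median log2 fold change was -0.16, and edgeR and limma-voom called 0. Scnn1g, the gamma subunit of the epithelial sodium channel, was at 90.2, 55.3 and 258 normalised counts in the Control animals and at 16.0, 6.48 and 37.4 in the STREP animals. The females were the highest of both groups. Scnn1g had a log2 fold change of -2.77 ± 0.72 with a DESeq2 adjusted p of 0.0055, and the call was lost without Control 3 (DESeq2 adjusted p = 0.337, log2 fold change -1.89) or STREP 1 (DESeq2 adjusted p = 0.0575). Slc12a2, the sodium, potassium and chloride cotransporter of the dark cells that secrete endolymph, had a log2 fold change of -0.55 ± 0.14 and a DESeq2 adjusted p of 0.0035, but it did not pass the fold threshold. It did so without Control 1, STREP 1 or STREP 2, at -0.59, -0.60 and -0.61.

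Kinases of the SGK and AKT branch gave 7 genes tested, with Sgk2 at 0 in every library. By DESeq2, 1 was called higher and 0 lower, 1 had an unadjusted p under 0.05, and the median log2 fold change was -0.01; edgeR and limma-voom called 0. Pdpk1, the kinase that activates SGK1, was at 701, 547 and 728 normalised counts in the Control animals and at 1027, 972 and 1047 in the STREP animals. Its log2 fold change was 0.62 ± 0.18 with a DESeq2 adjusted p of 0.0223, and the call was lost without Control 1, Control 2, STREP 1, STREP 2 or STREP 3, with DESeq2 adjusted p-values of 0.0548, 0.117, 0.116, 0.0507 and 0.0872. The log2 fold change was 0.06 ± 0.14 for Nedd4, a ubiquitin ligase, and -0.15 ± 0.14 for Akt2.

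The families of Klf9 and Tsc22d3 gave 13 other genes tested, of which 3 were called higher, 0 were called lower and 4 had an unadjusted p under 0.05, against 1.87%, 1.37% and 12.2% of all genes tested. The median log2 fold change was 0.29 with 11 of the 13 above 0, against 51% of all genes tested. None was called by edgeR or limma-voom (0 each). Klf2, a factor known from endothelium and quiescent lymphocytes, was at 14.1, 2.55 and 1.72 normalised counts in the Control animals and at 65.2, 57.2 and 56.8 in the STREP animals. Control 2 and Control 3 had 3 and 2 deposited counts, at or under the floor of 3. The fitted log2 fold change was 3.24 ± 0.83 with a DESeq2 adjusted p of 0.00488, and the call was lost without STREP 1 (DESeq2 adjusted p = 0.0755) or STREP 3 (DESeq2 adjusted p = 0.0553).

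Klf5, an epithelial factor, was at 364, 505 and 497 normalised counts in the Control animals and at 720, 709 and 901 in the STREP animals, with a log2 fold change of 0.77 ± 0.22 and a DESeq2 adjusted p of 0.0144. Its call was lost without Control 1 (DESeq2 adjusted p = 0.101) or STREP 3 (DESeq2 adjusted p = 0.119). Klf3, a transcriptional repressor, was at 733, 947 and 867 normalised counts in the Control animals and at 1070, 1376 and 1508 in the STREP animals, with a log2 fold change of 0.64 ± 0.19 and a DESeq2 adjusted p of 0.0334. Its call was lost without Control 1, Control 3, STREP 2 or STREP 3, with DESeq2 adjusted p-values of 0.214, 0.125, 0.138 and 0.175.

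The families around Dusp1, Errfi1 and Pdk4 held no called gene. By DESeq2, edgeR and limma-voom 0 were called of 8 MAP kinase phosphatases, of 10 genes of the EGF receptor family and its ligands, and of 16 genes of pyruvate dehydrogenase control and fatty acid oxidation; 1, 0 and 0 had an unadjusted p under 0.05, and the median log2 fold changes were -0.08, 0.15 and 0.01. Dusp9, Areg and Ereg were at 0 in every library. Among the phosphatases, the log2 fold change was -0.27 ± 0.17 for Dusp6, -0.40 ± 0.15 for Dusp14 and -0.02 ± 0.22 for Dusp10. It was 0.14 ± 0.15 for Erbb3, 0.13 ± 0.21 for the ligand gene Tgfa and 0.16 ± 0.21 for Egfr. It was 0.18 ± 0.19 for Pdha1 and -0.15 ± 0.14 for Pdhb, both subunits of pyruvate dehydrogenase, and -0.25 ± 0.14 for the kinase gene Pdk3.

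**Figure D4:**
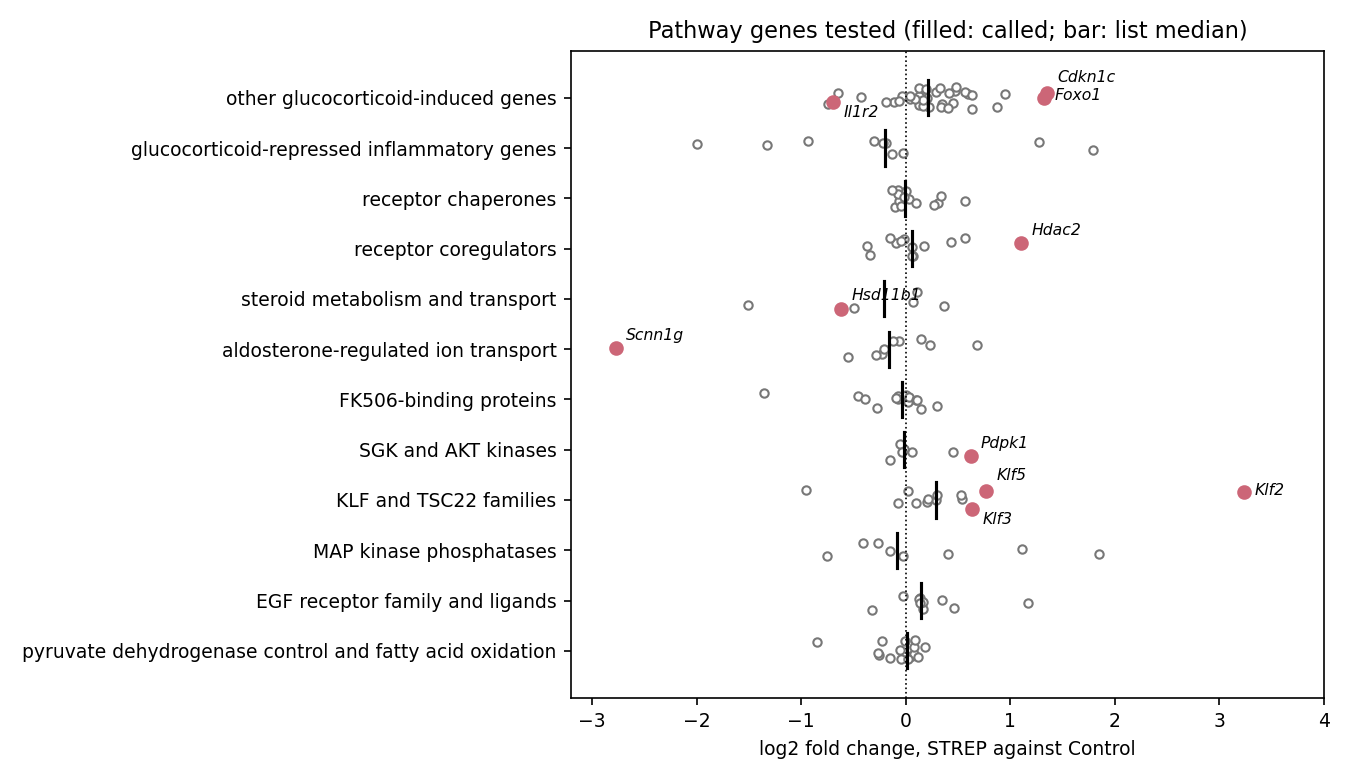
Log2 fold change of STREP against Control (horizontal axis) for every tested gene of the 12 pathway lists, spread vertically within a list for legibility; filled, named points were called and the bar is the list median. The list medians lie between -0.21 and 0.29, and the 10 called genes, 7 higher and 3 lower, fall in 6 lists.

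Over the 12 lists together, 7 of 155 genes tested were called higher and 3 were called lower, with a median log2 fold change of 0.06; edgeR and limma-voom each called 2. The whole table, by DESeq2, held 304 genes called higher and 223 called lower among 16250 tested.

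The libraries differed in depth, with 48568191 to 59906048 counts in Control and 29333584 to 33744909 in STREP. Hair cell markers were present in every library. The summed level of the 8 listed ran from 71713 to 73476 normalised counts in Control and from 60100 to 71358 in STREP, with no overlap. The highest STREP sum was close to the lowest Control sum. Of the 8, Gfi1 was called higher and Cib2 was called lower. Otof, another of the 8, had a mean of 28893 in Control and 25605 in STREP, and its groups overlapped. The groups also overlapped for Pou4f3, while Myo7a was lower in every STREP animal. The 6 dark cell markers summed to between 27687 and 27970 normalised counts in Control and between 16753 and 22318 in STREP, also with no overlap, with 0 called. Most of this sum was 1 gene, Slc12a2, with a mean of 21842 normalised counts in Control and 14910 in STREP. Kcnj10, another of the 6, had a mean of 1096 in Control and 1285 in STREP, and its groups overlapped. For the other 9 lists (supporting cells, melanocytes, Schwann cells, neurons, mesenchyme, endothelium, macrophages, blood and bone) the ranges overlapped, and 1 marker each was called higher for Schwann cells (Sox10), neurons (Tubb3) and macrophages (Cd163). The sums ran in Control and in STREP from 471470 to 593176 and from 549061 to 965066 normalised counts for the 8 supporting cell markers, from 237350 to 331264 and from 131796 to 271420 for the 6 Schwann cell markers, and from 5770, in Control 3, to 19896 and from 8216 to 11060 for the 4 blood markers. No listed marker with a row was at 0 in every library. Their part in the results for Fkbp5 and Klf9 was not tested, and in bulk tissue fewer cells of a type and less RNA per cell cannot be told apart.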

How the data were processed

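RNA from the vestibular epithelium of 6 rats was sequenced as 1 library per animal, following SMARTseq2. No batch entered the fits. The authors aligned the reads with STAR 2.5.3a and quantified genes with RSEM 1.3.0, per the submitters' processing notes, and the deposited values are expected counts, RSEM estimates of the reads of each gene, not scaled for library size. The table held 0 values that were not whole, so rounding changed nothing. The protocol does not mark strand, so reads of a gene and of an antisense partner cannot be told apart. Groups and sexes came from the labels, and replicates were numbered in deposition order.

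Counts were fitted over all genes in R 4.3.3 with DESeq2 1.42.0 (a design of group alone, Wald tests, size factors by the median-of-ratios method and independent filtering at 0.05). edgeR 4.0.16 (quasi-likelihood), limma 3.58.1 (voom), other size factors and filters, sex as a covariate, males alone, thinning, a fold threshold inside the test and the omission of each animal were alternatives. The scripts were tested on simulated data. The detection floor was 3 counts, or 0.0501 to 0.102 CPM, and covers counting error only.

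Members, gene lists and tests were chosen with earlier results of these data known. Named genes were all members, the 5 with the highest r with Fkbp5, and in each list up to 3 called genes by size of change, filled up with the genes of highest mean level. Cxcl10 and Ncoa3 are named beyond this rule for their DESeq2 p-values. They are not in the counts of named pathway genes over settings and omissions. The listed genes Mt1a, Nos2, Hspa1b, Ep300 and Abcb1a were not analysed here. A gene that the naming rule picks is not reported here.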

Additional observations from a re-analysis of the deposited data

Results flagged for a closer look

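For 6 of the named genes, both male STREP animals lay on one side of both male controls while the STREP female lay on the other side of the control female. How many of all genes had this pattern was not counted, so no share stands beside the 6. Each case rests on a single pair of females, and with a DESeq2 interaction term none of the 6 reached an adjusted p under 0.05. The change in the females minus the change in the males was -2.82 for Zbtb16 on the log2 scale, where the males rose by 1.48 and the females differed by -1.12. It was -0.69 for Egfr, the EGF receptor gene, at 0.37 in the males and -0.34 in the females; both had an unadjusted p under 0.05 in DESeq2 and an adjusted p of 0.897. The 4 others were smaller and of the opposite sign, with the females above the males: 0.33 for Hsp90ab1, 0.38 for Fkbp1a, 0.25 for Akt2 and 0.26 for Pdhb. Their DESeq2 adjusted p was 0.999 each.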

How the results depend on the processing

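Of the log2 fold changes of the 8 genes other than Fkbp5, 90 kept direction and call under alternative settings, 5 kept direction and lost the call, and 1 reversed; over omissions of 1 animal 38 kept both, 4 lost the call, 1 gained it and 5 reversed. That of Fkbp5, which was not tested, was 2.65, with 3.69 among the males alone and 2.18 to 3.52 over the omissions. For the named pathway genes these numbers were 354, 45 and 9 under alternative settings and 157, 22, 3 and 22 over the omissions. The genes called over the whole table numbered 527, and 264 in edgeR with a filter, 295 without it, 258 in limma-voom, 309 with library totals, 82 with the fold threshold inside the test and 424 to 517 over the omissions. Of the 8 genes, 1 was called, and 0 by edgeR with and without a filter, limma-voom, library totals or the fold threshold inside the test, and 0 to 1 over the omissions (0 without Control 1, Control 2 or STREP 1; Tsc22d3 without STREP 2; Klf9 without Control 3 or STREP 3). Of the pathway genes, 10 were called, and 2, 3 and 2 by those 3 fits, 5 with library totals, 5 among the males alone, 0 with the fold threshold inside the test and 6 to 10 over the omissions, with 6 without STREP 3. The cause was not tested, other than that males alone and omissions hold fewer animals.

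Reversed log2 fold changes were all in genes that were not called. Among the males alone they were 0.079 for Pdk4, 0.0050 for Nfkb1, -0.13 for Fkbp1a, -0.10 for Nedd4, -0.019 for Tgfa and -0.046 for Pdha1. Fkbp1a was at -0.025 with library totals, and Fkbp4 at 0.036 in limma-voom, 0.00094 with a filter of 10 counts in 3 samples and 0.0047 after thinning. Over the omissions the range was -0.076 to 0.015 for Sgk1, -0.19 to 1.37 for Zbtb16, -0.22 to 0.024 for Pdk4, -0.059 to 0.021 for Rela, -0.35 to 0.024 for Nfkb1, -0.35 to 0.057 for Hsp90ab1, -0.38 to 0.087 for Hspa8, -0.20 to 0.15 for Fkbp4, -0.061 to 0.15 for Tspo, -0.16 to 0.11 for Fkbp1a, -0.030 to 0.14 for Nedd4, -0.13 to 0.12 for Dusp10, -0.030 to 0.27 for Tgfa and -0.019 to 0.35 for Pdha1. No scaling moved the median of all genes by as much as 0.02.

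No paired analysis was possible because the labels give no replicate numbers and the numbers used here only name the animals. With 3 animals per group, of the pathway genes named, Cdkn1c and Hdac2 were the 2 called without each animal in turn. Counts of 24 to 199 for Fkbp5 in the controls and of 2 to 23 for Klf2 leave their ratios imprecise.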
